A study of Bos taurus with 16 samples.

Results

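MiR-379-5p, miR-411-5p and the 2 arms of miR-299, miR-299-5p and miR-299-3p, were followed in the bovine corpus luteum through early pregnancy. They are 4 of the 204 miRNA probes in the table and were picked out by name, as the leading end of the imprinted miR-379 to miR-656 cluster; the rule uses no measured value, but it was set with earlier results of these data known. Corpora lutea came from cattle found to be pregnant after natural mating and insemination, 4 each on day 14, day 17, day 20 and day 23 after breeding. Non-pregnant animals were not analysed here, and the labels name neither age nor breed; nothing in them says more of how the 4 samples of a day relate than that they are separate samples, so p-values measure the spread between these samples. MicroRNAs were counted on the NanoString platform, which counts colour-coded probes bound to RNA without amplification, in 2 runs of 8 samples that each held 2 samples of every day. Values are the authors' normalized counts.

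A miRNA hairpin is cut into a duplex with a 5p and a 3p strand, and usually one of them is kept and loaded into the silencing complex while much of the other is lost. In mammals the miR-379 to miR-656 hairpins lie one behind the other in the DLK1-DIO3 region and are expressed from the chromosome inherited from the mother, as parts of long non-coding transcripts. The cluster is best known from brain and placenta. In mice its loss from the maternal chromosome impairs metabolic adaptation at birth, and in mouse liver miR-379 is induced by glucocorticoids. In the RefSeq gene table of the cattle assembly ARS-UCD2.0 the genes start in the order MIR370, MIR379, MIR411A, MIR299, MIR299-2 and MIR380. All are on the same chromosome, and MIR299-2 overlaps MIR299. The stretch from MIR379 to MIR299 is overlapped by 1 annotated long non-coding RNA gene, LOC132343391. Each of the 4 probes carries a human name that a bovine gene shares. However, MIR411B lies close by, and both miR-299 probes match MIR299 and MIR299-2 by name. The table gives no sequence from which to tell whether a probe reads more than 1 gene.

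The NanoString runs set the scale of every value. Sample totals were 373847 to 536516 normalized counts in run 2 and 175197 to 331164 in run 1. The 38 probes named for miRNAs with no bovine gene of that name or number give an internal measure of low signal. Their median per sample was 40.4 to 88.8 in run 2 and 124 to 258 in run 1, highest in day 14 replicate 1. The median of the 155 probes with a bovine gene of the same name was 300.4 to 419 in run 2 and 177 to 248 in run 1. The probes with a bovine gene had the higher median in all samples but day 14 replicate 1 of run 1, where the order was reversed, with 177 against 258 for the probes without one.

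MiR-379-5p was the strongest of the 4 probes. It averaged 590.5 ± 301 normalized counts over all samples (SD, n = 16) and ranked between 46th and 88th of the 204 probes. On day 14 it had 1270.0 and 1113 normalized counts in run 2 and 308 and 271 in run 1. On day 17 it had 584 and 760.0 in run 2 and 604 and 435 in run 1. The widest gap between runs was thus on day 14, and the day 17 samples of both runs overlapped. On day 20 the values were 509 and 913 in run 2 and 611 and 351 in run 1. On day 23 they were 625 and 577 in run 2 and 266 and 251 in run 1, and the runs were apart again. By day the means were 740.5 ± 525, 596 ± 133, 596 ± 237 and 429.6 ± 199 (SD, n = 4 each). These SDs mix both runs and so hold the gap between them. Over both runs neighbouring days overlapped. Within each run the day 14 and day 17 pairs did not overlap, nor did those of day 20 and day 23 in run 1. How many of all probes had such pairs apart was not counted, here and below. MiR-379-5p exceeded the median of the probes with no bovine gene in all 16 samples, 6.498 to 26.4 times in run 2 and 1.19 to 4.88 times in run 1.

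MiR-411-5p, processed from the next hairpin, was weaker. It averaged 219 ± 97.0 normalized counts (SD, n = 16), with ranks from 78th to 128th. Its day 14 values were 415 and 293 in run 2 and 163 and 129 in run 1. Day 17 gave 194.5 and 411.2 in run 2 and 199 and 182 in run 1. The 411.2 normalized counts of day 17 replicate 4 stood well above the other 3 samples of that day. Day 20 gave 216 and 322 in run 2 and 223 and 116 in run 1. Day 23 gave 239 and 189 in run 2 and 109 and 109.7 in run 1, the lowest day mean within each run. Day means were 250.2 ± 131, 247 ± 109.9, 219 ± 84.4 and 162 ± 63.6, with SDs that again hold the gap between runs. In run 1 the day 14 and day 17 pairs did not overlap, nor did those of day 20 and day 23. In run 2 all neighbouring pairs overlapped. In run 1 the probe lay below the median of the probes with no bovine gene in 5 of 8 samples, including all 4 of day 14 and day 23, and in run 2 it lay above that median in 8 of 8.

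MiR-299-5p averaged 138 ± 49.6 normalized counts (SD, n = 16) and ranked 96th to 145th. On day 14 it had 206 and 178 in run 2 and 83.0 and 73.7 in run 1. On day 17 it had 247 and 152 in run 2 and 105 and 103 in run 1. On day 20 it had 168 and 161 in run 2 and 167 and 78.3 in run 1. On day 23 it had 120.2 and 154 in run 2 and 89.0 and 122 in run 1, so the samples of the runs overlapped on day 23, as they did on day 20. Day means were 135 ± 66.9, 152 ± 67.5, 143 ± 43.5 and 121 ± 26.7, with SDs that again hold the gap between runs. The neighbouring pairs apart within a run were day 14 and day 17 in run 1 and day 20 and day 23 in run 2. The probe lay below the median of the probes with no bovine gene in 7 of 8 run 1 samples and in 0 of 8 run 2 samples.

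MiR-299-3p was the weakest, at 87.8 ± 41.3 normalized counts (SD, n = 16) and ranks from 107th to 168th. Its day 14 values were 92.6 and 91.3 in run 2 and 56.8 and 63.9 in run 1. Day 17 gave 132 and 189 in run 2 and 63.6 and 49.2 in run 1. In run 2 day 17 had its highest day mean. Day 20 gave 84.7 and 104 in run 2 and 65.4 and 49.5 in run 1, and day 23 gave 153 and 108 in run 2 and 45.03 and 56.3 in run 1. Day means were 76.2 ± 18.5, 108 ± 64.8, 76.0 ± 23.8 and 90.5 ± 49.8, with SDs that again hold the gap between runs. Neighbouring pairs overlapped in run 1, while in run 2 all neighbouring pairs were apart. All 8 run 1 samples lay below the median of the probes with no bovine gene, at 0.220 to 0.514 of it, so in run 1 its signal was not above that of such probes. In run 2 it was 1.21 to 4.68 times their median. Counts from different probes depend on each probe's efficiency, so the order of the 4 levels is an order of signals and not of molecules.

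**Figure D1:**
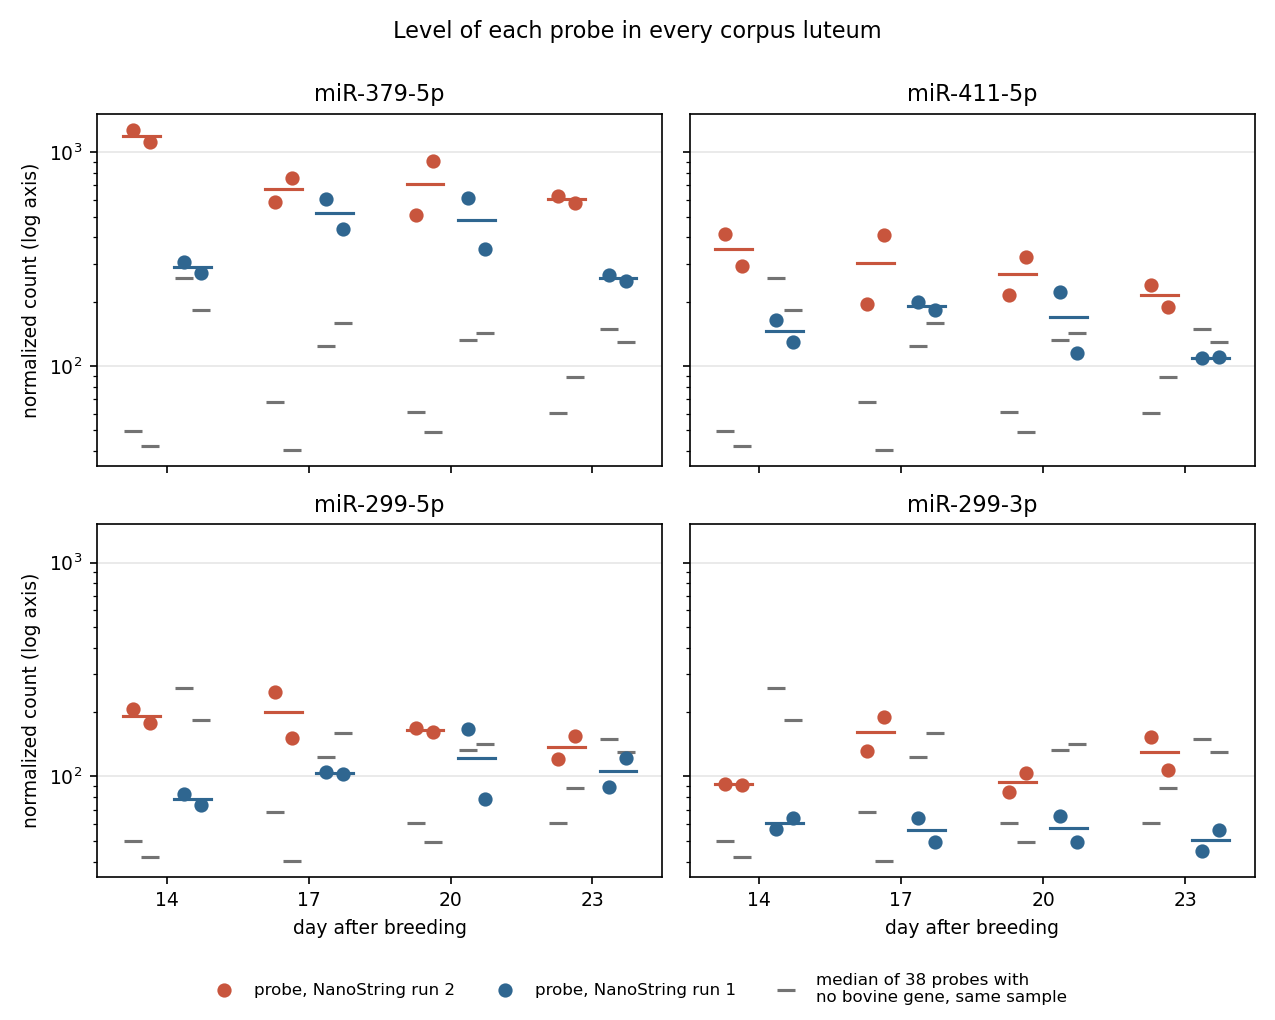
Normalized counts (log axis) of the 4 probes in each of 16 samples by day after breeding, with run 2 left of run 1 at each day, short coloured bars at the mean of 2 samples and grey bars at the sample's median of 38 probes with no bovine gene. MiR-379-5p lies above the grey bar in all 16 samples, and miR-299-3p lies below it in all 8 samples of run 1.

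All 4 probes had a higher signal in run 2. The differences in signal, from a linear model per probe in limma with day held, were 2.07-fold for miR-379-5p (log2 1.05, SE 0.23), 1.83-fold for miR-411-5p (log2 0.87, SE 0.21), 1.70-fold for miR-299-5p (log2 0.77, SE 0.20) and 2.05-fold for miR-299-3p (log2 1.03, SE 0.19). For miR-411-5p and the arms of miR-299 these folds are not exact, since run 1 signals lay below the median of the probes with no bovine gene. This held in 5 of 8 samples for miR-411-5p, 7 of 8 for miR-299-5p and 8 of 8 for miR-299-3p. Adjusted p-values, by Benjamini-Hochberg over all 204 probes in limma, were 4.4e-04, 9.2e-04, 0.0019 and 1.4e-04. A probe with an adjusted p under 0.05 is counted as called here and below. Of the 204 probes, 83.3% were called between runs 66.2% were called higher in run 2, and 84.8% had an unadjusted p under 0.05, which all 4 members reached. The median difference of run 2 minus run 1 over all probes was 0.74 on the log2 scale. Calls were 135 higher and 35 lower, against 97 higher and 40 lower with median centring and 57 higher and 37 lower with quantile normalization. The 4 members were thus not unlike the bulk of the table. With quantile normalization miR-379-5p was not called (log2 0.49, adjusted p = 0.0877 by limma).

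The design sets the days of early pregnancy against each other, here with the run held. In the test of the 4 days together, 0 of the 4 were called by limma, and 0 had an unadjusted p under 0.05; over all 204 probes the shares were 0% and 8.33%. Adjusted p-values were 0.675 for miR-379-5p, 0.661 for miR-411-5p, 0.969 for miR-299-5p and 0.909 for miR-299-3p. As a linear slope, miR-411-5p had -0.062 log2 units per day (SE 0.030, 95% interval -0.12 to 0.00023, adjusted p = 0.207 by limma). MiR-379-5p had -0.059 per day (SE 0.033, 95% interval -0.13 to 0.0087, adjusted p = 0.278 by limma). The slopes of the arms of miR-299 lay near 0, at -0.0057 for miR-299-5p (SE 0.029, 95% interval -0.066 to 0.055) and -0.00081 for miR-299-3p (SE 0.028, 95% interval -0.059 to 0.058), both with adjusted p = 0.989 by limma. Of all 204 probes, 0.490% were called for the slope (1 lower), and 23.5% had an unadjusted p under 0.05, which none of the 4 reached. Over all probes, median centring called 19 higher and 1 lower for the slope, and quantile normalization 5 higher and 4 lower. In bulk tissue, fewer cells of a type and less RNA per cell cannot be told apart.

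Between the ends of the interval, miR-379-5p and miR-411-5p had lower values on day 23 in both runs, without being called. MiR-379-5p averaged 601 normalized counts on day 23 and 1191 on day 14 in run 2, and 258 on day 23 and 289.5 on day 14 in run 1. The day 23 pair lay below the day 14 pair within each run, but over both runs the 2 days overlapped. With run held the log2 difference was -0.57 (SE 0.32, 95% interval -1.24 to 0.09, adjusted p = 0.310 by limma), that is 0.672 of the day 14 level. MiR-411-5p averaged 214 on day 23 and 354 on day 14 in run 2, and 109.3 on day 23 and 146 on day 14 in run 1. In run 1 all of these samples lay below the median of the probes with no bovine gene. They were at 0.634 and 0.705 of it on day 14 and 0.727 and 0.847 of it on day 23. The pairs were again apart within each run, with a difference of -0.56 (SE 0.29, 95% interval -1.17 to 0.05, adjusted p = 0.292 by limma). Pairs this small are often apart by chance, and how many of all probes had pairs apart within a run was not counted, here and below. Over all probes 0.490% were called (1 lower, against 5 higher and 1 lower with median centring), and 21.1% had an unadjusted p under 0.05. Leaving out day 14 replicate 3, a run 2 sample, brought miR-379-5p to -0.36, and leaving out day 14 replicate 2, a run 1 sample, brought it to -0.79; neither was called.

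The 2 arms of miR-299 had day 23 differences near 0, with opposite signs in the runs. MiR-299-5p differed by -0.04 (SE 0.29, 95% interval -0.64 to 0.56, adjusted p = 0.953 by limma), with -0.49 in run 2 and 0.41 in run 1. MiR-299-3p differed by 0.11 (SE 0.27, 95% interval -0.45 to 0.67, adjusted p = 0.892 by limma), with 0.48 in run 2 and -0.25 in run 1. In each of these 4 within-run comparisons the day 23 pair did not overlap the day 14 pair. Pairs this small are often apart by chance, and the share of all probes with pairs apart was not counted. In run 1 the pairs of both arms lay below the median of the probes with no bovine gene on both days. The difference between runs was -0.90 for miR-299-5p (SE 0.55) and 0.73 for miR-299-3p (SE 0.49), with adjusted p = 0.346 and 0.365 by limma. Over all probes, 19.1% had an unadjusted p under 0.05 in that test and 0% were called.

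Step by step, no member was called from day 14 to day 17, from day 17 to day 20 or from day 20 to day 23. Over all probes the called share was 0% for each step, and 2.45%, 0.490% and 4.90% had an unadjusted p under 0.05 in the 3 steps in that order, which 0 of the 4 members reached. Day 17 against day 14 gave 0.33 for miR-299-3p (95% interval -0.22 to 0.89), 0.21 for miR-299-5p (-0.38 to 0.81), 0.04 for miR-411-5p (-0.56 to 0.65) and -0.0044 for miR-379-5p (-0.67 to 0.66). Day 20 against day 17 gave -0.36 for miR-299-3p (-0.92 to 0.20), -0.17 for miR-411-5p (-0.78 to 0.43), -0.06 for miR-379-5p (-0.72 to 0.61) and -0.05 for miR-299-5p (-0.65 to 0.54). With run held, the last step had the largest estimates for miR-379-5p and miR-411-5p. In run 2 alone it was -0.18 for miR-379-5p, against -0.83 in the first step, and -0.31 for miR-411-5p, against -0.30 in the first. Day 23 against day 20 gave -0.51 for miR-379-5p (95% interval -1.18 to 0.15, adjusted p = 0.811 by limma) and -0.43 for miR-411-5p (-1.04 to 0.18, adjusted p = 0.872 by limma). It gave -0.20 for miR-299-5p (-0.80 to 0.40) and 0.14 for miR-299-3p (-0.42 to 0.70).

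**Figure D2:**
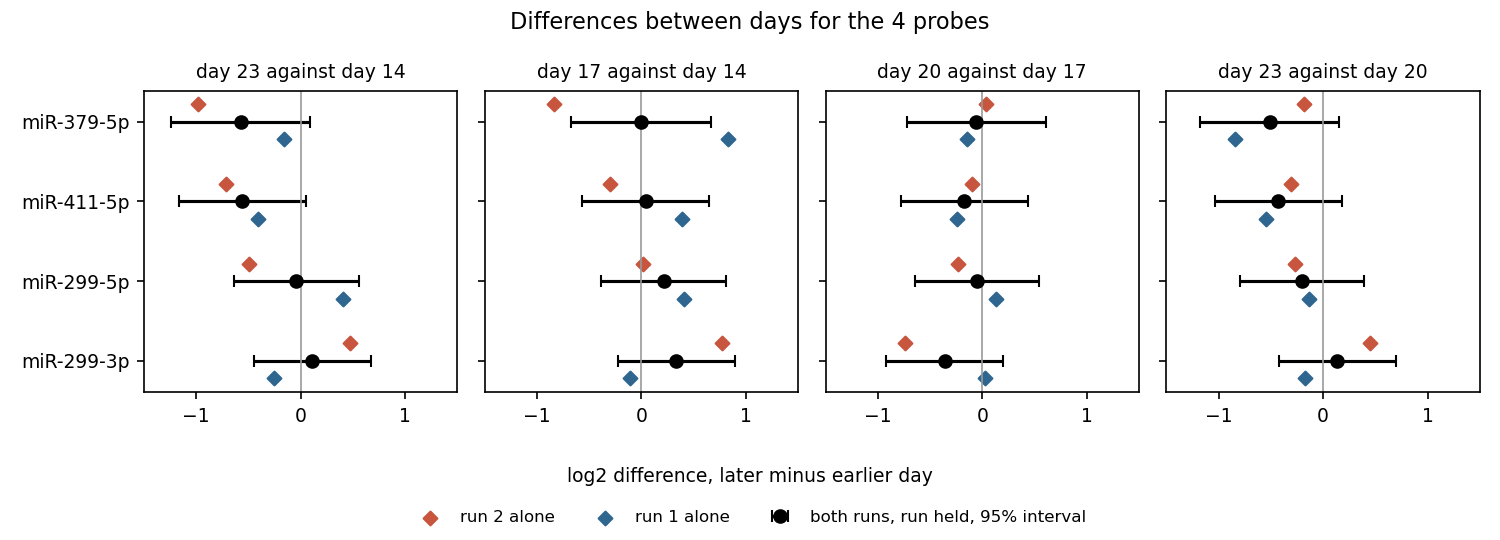
Log2 differences (later minus earlier day) for the 4 probes in 4 comparisons, as the limma estimate with run held and its 95% interval (black), and within run 2 and run 1 alone (diamonds, mean of 2 samples per day). Each interval includes 0, and for miR-379-5p on day 17 against day 14 the runs lie at -0.83 and 0.83.

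The near-zero step of miR-379-5p from day 14 to day 17 was the mean of opposite steps in the runs. It was lower on day 17 in run 2, by -0.83 on the log2 scale, and higher in run 1, by 0.83, and in neither run did the day 17 and day 14 pairs overlap. The difference between the runs was -1.66 (SE 0.52, 95% interval -2.76 to -0.56, unadjusted p = 0.0055, adjusted p = 0.147 by limma), the 6th smallest p of 204 probes. It was not called, and 0% of probes were called while 15.2% had an unadjusted p under 0.05. It ran from -1.90 to -1.42 with each sample left out in turn. In run 1 the median of the probes with no bovine gene was 124 and 159.5 in the day 17 samples and 258 and 184 in the day 14 samples. In run 2 it was 68.2 and 40.4 on day 17 and 49.9 and 42.2 on day 14. Its part in the difference was not tested. MiR-411-5p had the same signs, with -0.30 in run 2 and 0.39 in run 1, and a difference between runs of -0.69 (SE 0.59, adjusted p = 0.564 by limma).

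Within run 1 alone, miR-379-5p was the 1 member called over the 4 days, with an adjusted p of 0.0320 by limma over 8 samples. Its levels there were higher on day 17 and day 20 (351 to 611) than on day 14 and day 23 (251 to 308). They did not overlap, a gap that was not counted over all probes. In that fit 19.6% of all probes were called. The run 1 samples of day 14 had the lowest totals of all 16 (175197 and 213338 normalized counts). They also had the highest medians of the probes with no bovine gene (258 and 184). MiR-379-5p was 1.19 and 1.48 times that median there. It was 2.47 to 4.88 times on day 17 and day 20, and 1.77 and 1.94 times on day 23. The part of this in the call was not tested. In run 2 alone 0% of probes were called and miR-379-5p had an adjusted p of 0.933 by limma, with its highest values on day 14. Over both runs, the test of whether the day pattern differed between runs gave miR-379-5p an unadjusted p of 0.0223 and an adjusted p of 0.388 by limma. Of all probes, 9.80% had an unadjusted p under 0.05 in that test.

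The arms of miR-299 were compared as the log2 value of miR-299-5p minus that of miR-299-3p in each sample, a difference whose level depends on the efficiency of both probes. In run 1 its change between samples may also depend on how each probe reads below the median of the probes with no bovine gene. It averaged 0.69 ± 0.49 (SD, n = 16), and the ratio of normalized counts ran from 0.785 to 2.55 with a median of 1.77. MiR-299-5p was the higher arm in 14 of 16 samples. The exceptions were day 17 replicate 4, at -0.32, and day 23 replicate 3, at -0.35, both of run 2. By day the difference was 0.71 ± 0.42, 0.59 ± 0.62, 0.90 ± 0.34 and 0.56 ± 0.65 (SD, n = 4 each), and the days overlapped. In run 2 the pairs were 1.15 and 0.96 on day 14, 0.90 and -0.32 on day 17, 0.98 and 0.62 on day 20, and -0.35 and 0.51 on day 23. In run 1 they were 0.54 and 0.20, 0.72 and 1.05, 1.34 and 0.65, and 0.97 and 1.10 on the same days. The day 23 pair was below the day 14 pair in run 2 and above it in run 1.

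The arm difference had a slope of -0.0049 log2 units per day with run held. By an exact two-sided permutation of the days within each run, in which all 6350400 arrangements were counted, p was 0.897. The slope was -0.080 per day in run 2 (exact permutation p = 0.217) and 0.070 in run 1 (exact permutation p = 0.0595). In run 1, where the slope was upward, miR-299-3p was below the median of the probes with no bovine gene in all 8 samples and miR-299-5p in 7 of 8. The part of this in the arm difference was not tested.

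**Figure D3:**
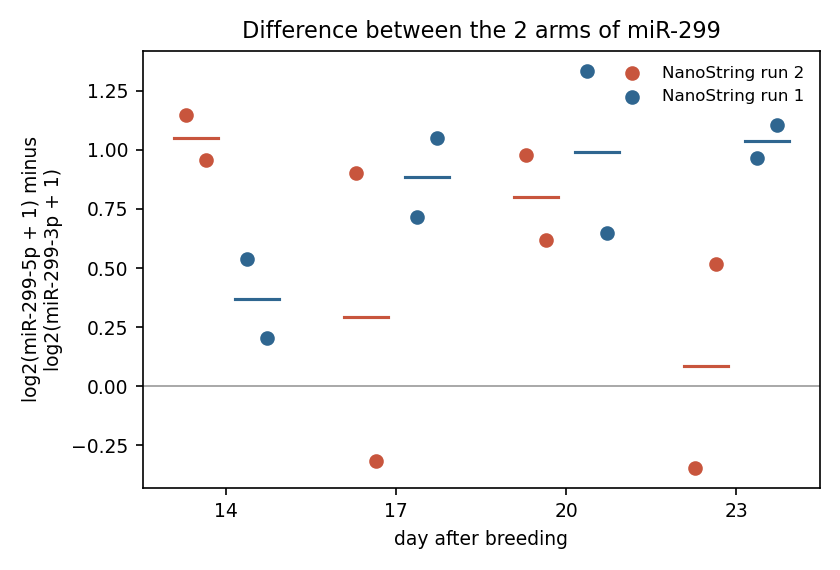
Difference between the arms of miR-299, log2(miR-299-5p + 1) minus log2(miR-299-3p + 1), in each of 16 samples by day after breeding, with run 2 left of run 1 and bars at the mean of 2 samples. It is above 0 in 14 of 16 samples, and its mean in run 2 is lower on day 23 than on day 14 while in run 1 it is higher.

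Within each run, miR-379-5p and miR-411-5p had a positive correlation over the 8 samples, which did not pass adjustment. Pearson r was 0.79 in run 2 (exact permutation p = 0.0281) and 0.89 in run 1 (exact permutation p = 0.0050). Spearman rho was 0.83 in run 2 (exact permutation p = 0.0154) and 0.90 in run 1 (exact permutation p = 0.0046). Of 12 correlations, from 6 pairs of members in 2 runs, these 2 were the ones with an unadjusted p under 0.05, and after Benjamini-Hochberg adjustment over the 12, 0 passed. The exact permutation p adjusted over the 12 was 0.168 in run 2 and 0.0604 in run 1 for Pearson r, and 0.0923 in run 2 and 0.0548 in run 1 for Spearman rho. Without the 2 samples farthest from the median of miR-379-5p, r was 0.80 in run 2 and 0.72 in run 1 (n = 6). Probes of one sample also share the scale of that sample, and how many other pairs of probes reached such an r was not counted.

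The arms of miR-299 had correlations of opposite sign in the runs, neither past the threshold. Their Pearson r was -0.33 in run 2 (exact permutation p = 0.422) and 0.36 in run 1 (exact permutation p = 0.387), and Spearman rho was -0.52 in run 2 (exact permutation p = 0.197) and 0.19 in run 1 (exact permutation p = 0.665). The other 8 correlations had r between -0.25 and 0.57, with exact permutation p-values of 0.135 to 0.949. MiR-379-5p with miR-299-5p had r of 0.21 in run 2 and 0.57 in run 1, and the run 1 value was -0.03 without the 2 farthest samples.

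Likeness to the other probes was measured as Pearson r of log2 values over the 16 samples after the mean of each run was subtracted, and is given as a description. The probes most like miR-379-5p were miR-382-5p (r = 0.88) and miR-487b-3p (r = 0.87), both of the same cluster, and miR-411-5p (r = 0.83). MiR-411-5p was most like miR-376c-3p, also of the cluster (r = 0.95), then miR-379-5p (r = 0.83) and miR-21-5p (r = 0.78), a miRNA abundant in many tissues. For miR-21-5p the value was 0.94 in run 2 and 0.50 in run 1. MiR-299-5p was most like miR-455-3p (r = 0.76), which lies outside the region, followed by the cluster's miR-409-3p (r = 0.67) and miR-543 (r = 0.67). MiR-299-3p had no cluster probe among its nearest 3, which were miR-518b (r = 0.62), a probe with no bovine gene, miR-450a-5p (r = 0.60) and miR-30e-5p (r = 0.59). The last of these had r of 0.92 in run 2 and -0.15 in run 1.

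MiR-299-3p had the lowest median likeness to the rest of the imprinted region, with a signal below the median of the probes with no bovine gene in 8 of the 16 samples. The region's 13 other measured probes comprise 9 of the cluster and 4 of the neighbouring group from miR-127 to miR-136. The median r with them was 0.58 for miR-379-5p, 0.56 for miR-411-5p, 0.53 for miR-299-5p and -0.04 for miR-299-3p. Over the 203 other probes of the table the medians were 0.09, -0.0082, 0.06 and -0.05. An r above 0.5 was reached with 7 of the 13 by each of the first 3 members and with 0 of the 13 by miR-299-3p. Over the 203 other probes it was reached with 43 by miR-379-5p, 41 by miR-411-5p, 9 by miR-299-5p and 9 by miR-299-3p. Probes of one sample share its scale and depth. Measured the same way, r with the log2 sample total was 0.24 for miR-379-5p, -0.10 for miR-411-5p, 0.32 for miR-299-5p and -0.10 for miR-299-3p. The part of scale in the likeness and the difference between members were not tested.

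**Figure D4:**
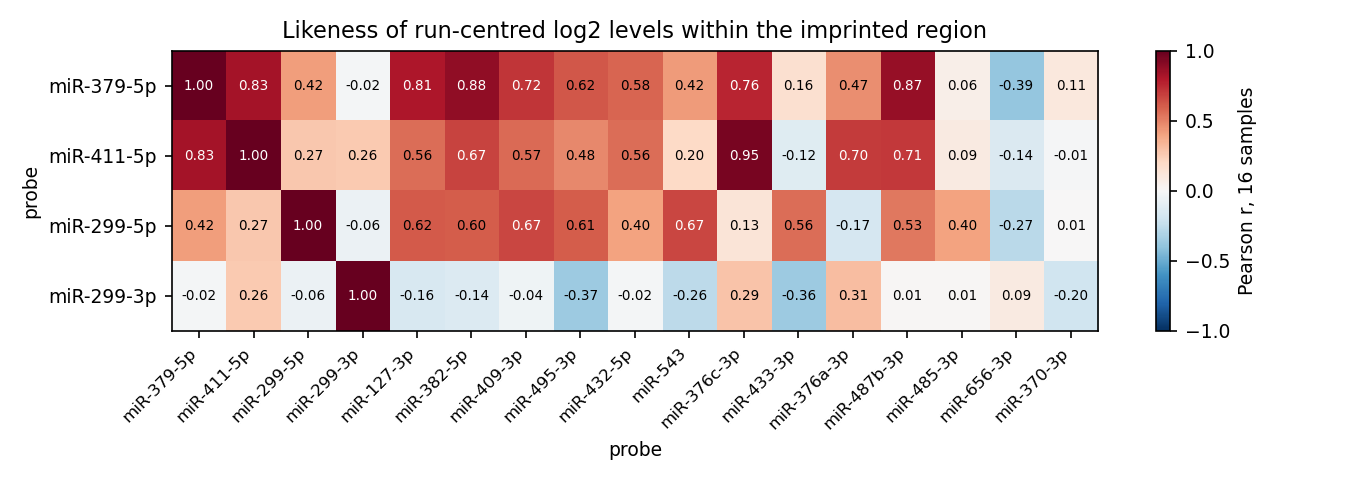
Pearson r over 16 samples between each of the 4 probes (vertical axis) and the 17 measured probes of the imprinted region (horizontal axis), from log2 levels with the run mean subtracted. MiR-379-5p and miR-411-5p reach 0.88 and 0.95 with other cluster probes, and miR-299-3p stays between -0.37 and 0.31 with the 13 probes outside the 4; its run 1 signal was below the median of the probes with no bovine gene in 8 of 8 samples.

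Set beside the rest of the region, the 2 leading miRNAs had day 23 differences close to the median of the other probes, while those of the miR-299 arms lay nearer 0. On day 23 against day 14, the 13 other probes all had values below 0, with a median log2 difference of -0.57 and a range of -1.32 to -0.22. Their median was -0.84 in run 2 alone and -0.34 in run 1 alone. Some of the 13 averaged 34.8 to 117 normalized counts, under the run 1 medians of the probes with no bovine gene (124 to 258). In run 1 those medians were 258 and 184 on day 14 and 150 and 130 on day 23. Their part in the differences of the 13 was not tested. The 4 members had a median of -0.30, with 3 below 0, and all 204 probes had a median of 0.00096, with 102 below 0. Of the 13, 1 was called, which was also the 1 of 204 (0.490%) called over all probes. It was miR-432-5p, of the neighbouring group, with -1.32 (SE 0.28, adjusted p = 0.0204 by limma). It was not called without day 14 replicate 1 or 3, without day 23 replicate 1 or 4, with no run term, in run 2 alone or with the floor at probes with no bovine gene. The most abundant of the 13 were miR-127-3p (628 ± 256 normalized counts, SD, n = 16), miR-382-5p (362 ± 151) and miR-409-3p (333 ± 130). Their differences of -0.75, -0.48 and -0.57 were not called, with adjusted p = 0.143, 0.387 and 0.204 by limma. As a slope the 13 had a median of -0.061 per day, all below 0, with miR-432-5p the 1 called (-0.13 per day, SE 0.030, adjusted p = 0.0388 by limma). That slope was called in 14 of 27 alternatives and below 0 in all 27, some of which leave the estimate as it is. The 4 members had a median of -0.032 per day, and all probes 0.00090, with 98 of 204 below 0.

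**Figure D5:**
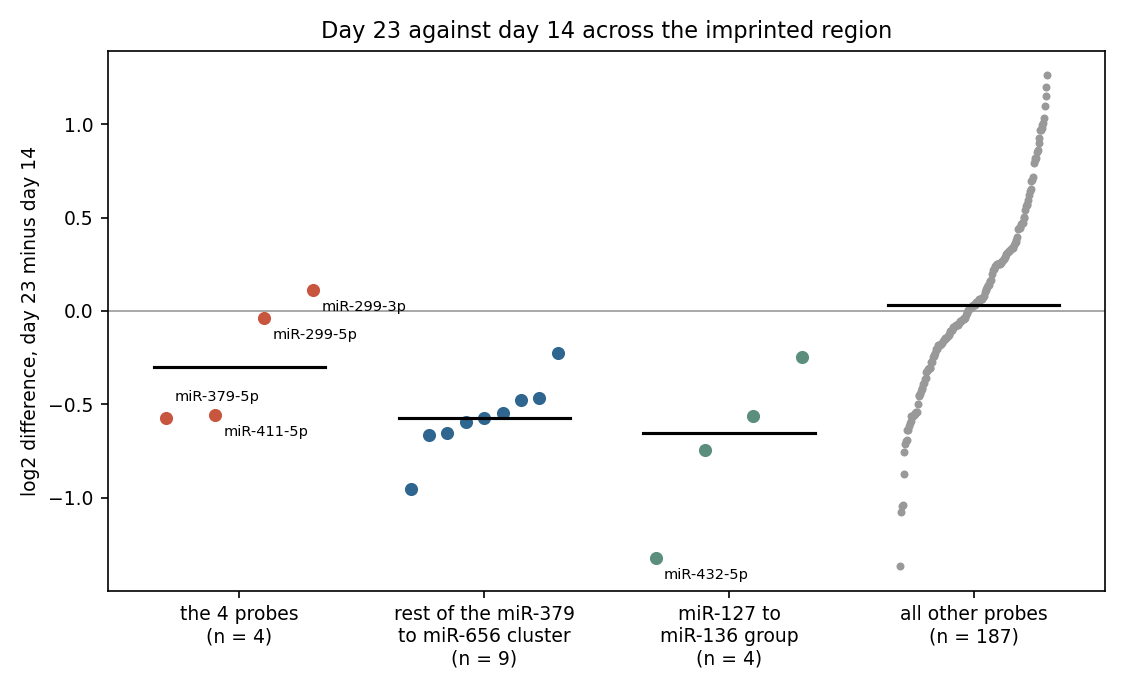
Log2 difference, day 23 minus day 14 with run held, for the 4 probes, the 9 other probes of the cluster, the 4 of the neighbouring group and the 187 remaining probes (points, sorted within each set; bars are medians). MiR-379-5p and miR-411-5p lie at -0.57 and -0.56 among the cluster probes, and the arms of miR-299 lie near 0.

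Markers of other cells that the tissue could hold were measured in the same samples. MiR-451a, of red blood cells, was 132 to 367 normalized counts on day 23 and 206 to 1877 on day 14, a log2 difference of -1.04. The sum of 4 measured leukocyte miRNAs was 1030.3 to 1832 on day 23 and 904 to 4098 on day 14, with a median difference of -0.70 for its probes. The endothelial miR-126-3p differed by -0.46, the 4 smooth muscle, pericyte and fibroblast probes had a median of 0.19, and the epithelial miR-141-3p had 0.29. None of these probes was called by limma for day 23 against day 14, and none was at 0 in any sample. Their part in the values of the 4 probes was not tested. No miRNA specific to luteal cells was among the markers, so the tissue label was not checked in this way.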

How the data were processed

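MicroRNA levels of 16 corpora lutea came from 1 table of 204 probes. Its entries are a signal that cannot fall below 0, which the authors deposited under the name of normalized counts. No source used here states the counting software, probe panel, background correction, normalization or filters. Low entries of each column lay on even steps of 0.665 to 2.91 normalized counts with a shift that was not 0, so whole counts were not recovered and no counting interval is given. MiR-299-3p spanned 37.0 to 237 steps and miR-379-5p 183 to 1027.

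Levels entered the tests as log2(normalized count + 1), which understates differences of low probes. The filter of 20 normalized counts in 4 samples removed no probe. Models were fitted in R 4.3.3 with the package limma 3.58.1, using lmFit and eBayes and an intensity trend. Day entered as a factor or as a number and run was a second term; residual degrees of freedom with the factor were 11. Benjamini-Hochberg adjustment ran over the 204 probes of each test. Permutations ran in Python 3.11.15. Both were tested on simulated data.

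The members, lists and tests were chosen with earlier results of these data known. Besides the 4 members, the text names probes of the region that were called or were its 3 most abundant, the 3 probes most like each member, and cell type markers. Tests of a difference between runs were extended after the data were seen. Alternatives were no run term, a pseudocount of 10, median centring, quantile normalization, other filters, a floor at the median of probes with no bovine gene, no intensity trend, each run alone, a replicate block and leaving out each sample. Replicate numbers were checked for pairing: the deviations of same-numbered samples from the mean of their day correlated in 24 of 24 pairs (Pearson r across probes, 0.19 to 0.81). Replicates 1 and 2 were always in run 1 and replicates 3 and 4 in run 2, so same-numbered samples also share a run. With day and run removed, 9 of 24 pairs had r above 0.1, and r ran from -0.60 to 0.57. The 8 pairs that share a day and a run were 0.475 to 0.871 log2 units apart (root mean square), and none was a duplicate.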

Additional observations from a re-analysis of the deposited data

Results flagged for a closer look

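Within the 4 samples of each day, the lowest and the highest sample were set against the rest for the 4 probes and the arm difference. That made 20 groups. Chance singles out about 1 in 20 where the samples of a group are alike and the groups are independent. Here each group mixes both runs, and the arm difference reuses 2 of the probes, so that rate is only a rough guide. In 2 groups a sample stood apart. MiR-411-5p on day 17 had a highest value of 411.18 normalized counts, in replicate 4 of run 2, where the other 3 samples had 182 to 199. MiR-299-5p on day 20 had a lowest value of 78.26 normalized counts, in replicate 2 of run 1, where the other 3 samples had 161 to 168.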

How the results depend on the processing

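With the replicate block in place of the run, no call of the 4 probes changed, and for day 23 against day 14 miR-379-5p had -0.57 (adjusted p = 0.302 by limma) and miR-411-5p -0.56 (adjusted p = 0.277 by limma). In all 27 alternatives both were below 0 and uncalled for this comparison (-0.98 to -0.16 and -0.71 to -0.40) and for the slope (-0.097 to -0.021 and -0.077 to -0.049). Not all of these could differ: no run term, the replicate block, no intensity trend and the other filters leave both estimates as they are. Leaving out a day 17 or day 20 sample does the same for day 23 against day 14. Quantile normalization brought day 23 against day 14 of miR-379-5p to -0.35. Other values turned sign without being called, unless stated, and the cause was not tested. In run 2 alone, day 17 against day 14 gave -0.30 for miR-411-5p, day 20 against day 17 gave 0.033 for miR-379-5p, and the slope of miR-299-3p was 0.023. In run 1 alone, day 17 against day 14 gave 0.83 for miR-379-5p and -0.10 for miR-299-3p, and day 20 against day 17 gave 0.13 for miR-299-5p and 0.024 for miR-299-3p. Day 23 against day 14 there gave 0.41 for miR-299-5p and -0.25 for miR-299-3p, day 23 against day 20 gave -0.17 for miR-299-3p, the slope of miR-299-5p was 0.045 and that of the arm difference 0.070. The adjusted p of miR-379-5p over the 4 days by limma was 0.0320 in run 1 alone. The median of the 13 other probes of the region for day 23 against day 14 was -0.84 in run 2 alone and -0.34 in run 1 alone. The floor at probes with no bovine gene gave day 17 against day 14 as -0.31 for miR-299-5p and -0.25 for miR-411-5p, and day 23 against day 14 as -0.081 for miR-299-3p. With that floor miR-299-5p differed between the runs by 0.64 on day 17 against day 14, 0.15 on day 23 against day 14 and 0.0027 per day, and run 2 against run 1 gave -0.43 for miR-299-3p (called) and 0.085 for miR-299-5p. The values with this floor say nothing of the miR-299 arms themselves, since it replaced 8 of 8 run 1 values of miR-299-3p and 7 of 8 of miR-299-5p. It also replaced 5 of 8 run 1 values of miR-411-5p, among them all of day 14 and day 23. With this floor the run 1 difference of miR-411-5p between those days is thus that of the floor alone. Median centring gave 0.047 for miR-379-5p on day 17 against day 14 and 0.037 for miR-299-5p on day 23 against day 14, slopes of 0.0069 for miR-299-3p and 0.0020 for miR-299-5p, and a slope difference between runs of 0.0069 for miR-411-5p. Quantile normalization gave 0.15 and 0.11 for the same 2 differences, slopes of 0.0083 and 0.011, a slope difference of 0.026 for miR-411-5p, a difference between runs of 0.094 for miR-411-5p on day 23 against day 14, and 0.49 for miR-379-5p in run 2 against run 1, not called. A pseudocount of 10 gave a slope of 2.8e-05 for miR-299-3p. The filter of 100 in 8 samples tested 135 probes and left out miR-299-3p.

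Leaving out each sample in turn turned the sign of some uncalled values. Day 17 against day 14 ran from -0.22 to 0.21 for miR-379-5p and from -0.098 to 0.29 for miR-411-5p. Day 20 against day 17 ran from -0.29 to 0.18 for miR-379-5p and from -0.29 to 0.099 for miR-299-5p. Day 23 against day 14 ran from -0.19 to 0.095 for miR-299-5p and from -0.035 to 0.22 for miR-299-3p. Day 23 against day 20 ran from -0.35 to 0.042 for miR-299-5p and from -0.010 to 0.27 for miR-299-3p. Slopes ran from -0.020 to 0.0097 for miR-299-5p, from -0.014 to 0.0090 for miR-299-3p and from -0.026 to 0.024 for the arm difference, and the slope difference of miR-411-5p between runs from -0.044 to 0.0065. Over all probes, calls for day 23 against day 14 numbered 1, and 0 to 10 with a sample left out, 6 with median centring and 40 in run 1 alone. For the slope they numbered 1, and 0 to 11 with a sample left out, 20 with median centring, 9 with quantile normalization, 9 in run 1 alone and 3 with the filter of 100. Run 2 against run 1 gave 170, and 94 with quantile normalization. In run 1 alone the steps gave 5, 1 and 4 calls in day order, against 0 each in both runs. The floor at probes with no bovine gene gave 43 calls for the difference between runs on day 23 against day 14 and 46 for that of the slope, against 0 each; none was one of the 4.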
